A study of Mus musculus with 6 samples.

Results

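Glucose is split to pyruvate by the enzymes of glycolysis, and the genes of that route, of pyruvate handling and of the pentose phosphate pathway were followed step by step in a mouse endothelial line. The set was a fixed list of 33 gene symbols covering sugar and lactate transport, the glycolytic steps, pyruvate import into mitochondria and its oxidation, and the pentose phosphate pathway. Of these, 32 had a row among the 24080 genes of the deposited table, and 29 were expressed highly enough to be tested. Pdk4 was not analysed here, and Slc2a3, Aldoc and Eno2 were too low for a test.

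The RNA came from endothelial cells (ECs) that had been differentiated from murine embryonic stem cells homozygous for a null mutation of VEC. VEC is vascular endothelial cadherin, the adhesion protein of endothelial cell junctions, encoded by Cdh5. The VEC-null group was this line, and the VEC-positive group was the same line after a retrovirus had returned the wild-type form of VEC. Each group held 3 libraries of total RNA, and the comparison asks how the return of VEC relates to the levels of these transcripts. Both groups therefore carry the same null alleles, both stem from a single line, and the VEC-positive cells have in addition been through retroviral transfer. The study calls the libraries biological replicates, and the sources used here do not say how the cultures were separated, so that p-values here measure the spread between these libraries, which may be partly technical.

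Endothelial cells are known to take much of their ATP from glycolysis even where oxygen is plentiful, and to export the resulting lactate. Glucose is trapped by hexokinase, committed by phosphofructokinase and carried through triose phosphates to pyruvate, which is either reduced to lactate or imported into mitochondria and oxidized by pyruvate dehydrogenase. The pentose phosphate pathway branches off at glucose 6-phosphate to make NADPH and ribose, and its non-oxidative enzymes return carbon to glycolysis.

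Several properties of the libraries bear on every value below. The targeted gene went against the labels, since Cdh5 had 1334, 1439 and 1689 normalized counts in the VEC-null-labelled libraries and 794.3, 739.4 and 749.7 in those labelled VEC-positive, a log2 fold change of -0.96 with an adjusted p of 0.000182 (limma). A count over the whole gene also takes in RNA that a null allele may still make, and the sources used here do not say which part of the gene was removed. Genes that the study followed beside it were also counted: Cldn5 (claudin-5) had 4.43 to 9.18 normalized counts in the VEC-null-labelled libraries and 429 to 512 in the others, Ptprb (VE-PTP) 5447 to 6243 against 20957 to 22559, and Vwf (von Willebrand factor) 385 to 410 against 1657 to 1813. Adm, too low for a test, had 15.3, 3.94 and 19.5 against 2.33, 0 and 0. The study reports claudin-5, VE-PTP and vWf as raised by VEC and Adm as repressed by it. By the labels, these counts ran in the same directions. Whether the group labels had been exchanged was not tested, and all directions below are those of the labels. Depth ran from 6036155 to 14136376 reads per library with a median of 11128657. Transcripts of the mitochondrial genome took 9.62% to 14.9% of reads in the VEC-null-labelled libraries and 18.0% to 24.2% in those labelled VEC-positive, and the part of this in the results was not tested. The endothelial marker list summed to 47659 to 50943 normalized counts in the VEC-null-labelled libraries and to 68630 to 70527 in the others, with Kdr and Pecam1 in the lead. The summed markers of mural cells and fibroblasts were far lower, at 73.6 to 173 against 245 to 274, those of leukocytes were at 129 to 436 against 143 to 199, and those of neurons and astrocytes, most of it Slc1a2 and Elavl3, at 181 to 531 against 170 to 306. Muscle markers summed to 35.4 to 64.3 against 45.2 to 56.5. Of the 9 endothelial markers 7 rose and 1 fell, of the 3 tested mural and fibroblast markers 1 rose, and of the tested leukocyte (3), neural (5) and muscle (1) markers 0 passed in limma, where 20.9% of all tested genes rose and 16.4% fell. Their part in the results was not tested. Epithelial and pluripotency markers stayed under 12 normalized counts in sum in every library.

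The library VEC-null 3 stood apart from its group for these genes. It was the highest of the 3 libraries labelled VEC-null for 22 of the 29 tested genes (75.9%), against 49% of all 14032 genes tested, and the lowest for 2. The median log2 ratio of VEC-null 3 to the mean of the other two was 0.29 over the 29 genes and 0.083 over all genes. This was not particular to the set. VEC-null 3 was also the highest for 76.1% of the other sugar metabolism genes and 76.9% of the hypoxia genes described below. Their median log2 ratios were 0.20 and 0.24. In VEC-null 3, Mpc1 was 2.06 times, Slc16a3 1.94 times and Pgk1 1.78 times the mean of its 2 companions. Results were therefore also computed without this library, except for Fbp2, which then had too few libraries at 10 normalized counts to be tested.

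Of the 29 tested genes, 5 rose and 3 fell from the libraries labelled VEC-null to those labelled VEC-positive, and 21 did not pass (limma on log2 normalized counts, adjusted p under 0.05 over all genes). The called share was 27.6%, below the 37.3% of all 14032 tested genes (2927 higher, 20.9%, and 2304 lower, 16.4%). The genes that rose were Slc16a3, Hk1, Pfkm, Pgam1 and Pdk1, and those that fell were Pgk1, Eno1 and Tkt. Log2 fold changes were positive for 14 and negative for 15 genes, with a median of -0.0051 against -0.012 for all genes, and Slc16a3 alone changed by 2-fold or more. The groups did not overlap for 14 of the 29 genes, 7 in each direction, where 50% of all tested genes showed no overlap (27.2% above and 22.8% below). Without VEC-null 3, the counts were 9 higher and 3 lower, beside 27.7% and 23% (50.6% in all) of the 13709 genes then tested, and the additions were Pfkl, Pdk2, Mpc1 and Taldo1. With libraries scaled to equal totals in place of the deposited size factors, which moved the median of all genes from -0.012 to -0.32, the split was 2 higher and 14 lower, beside 11.1% and 35.3% of all genes. In RNA from whole cultures, fewer cells of a kind and less RNA per cell cannot be told apart.

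**Figure D1:**
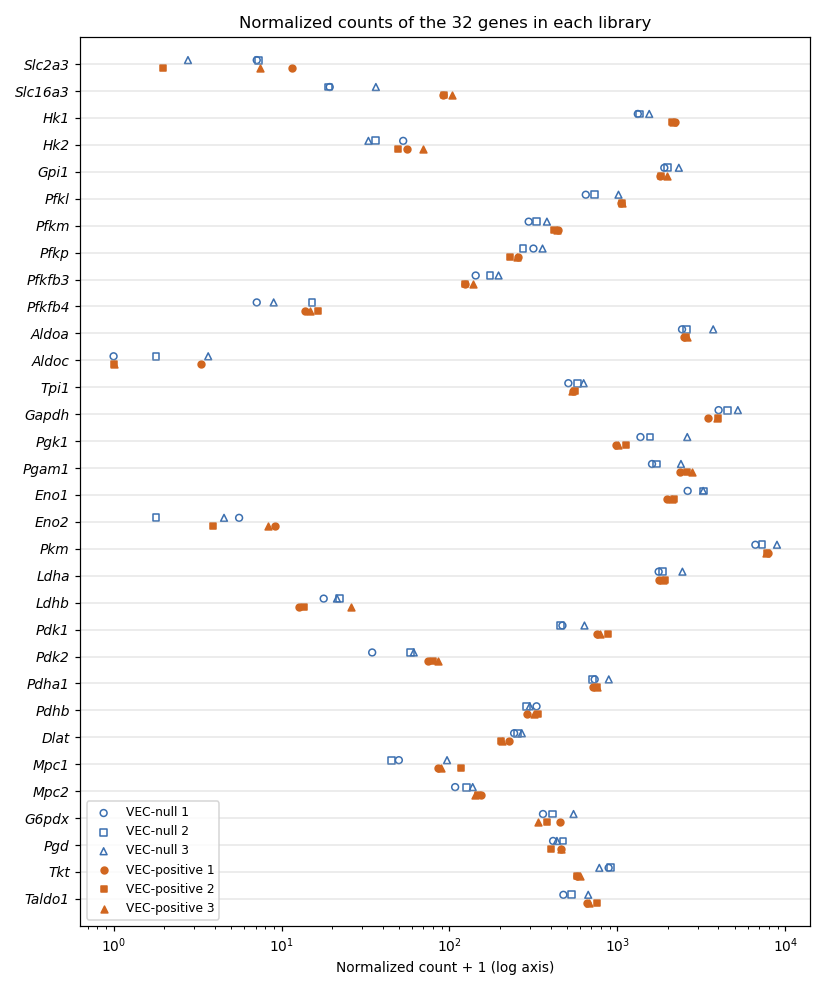
Normalized count plus 1 (log axis) of the 32 genes in each library, with open symbols for VEC-null and filled symbols for VEC-positive and 1 symbol shape per replicate number. Slc16a3 and Hk1 are separated upwards and Eno1 and Tkt downwards in the libraries labelled VEC-positive, and the open triangle of VEC-null 3 is the rightmost open symbol for most genes.

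The starts of the genes are shown for 4 members that moved, 2 in each direction. Their windows were picked for display, and each holds core letters of the hypoxia response element. Of the other genes that moved, Pfkm, Pgam1 and Tkt also hold a match and Hk1 holds none, and their windows are not shown. The part of these letters in the directions was not tested. Each line gives 300 bases from 250 before to 50 after the start site in RefSeq (GRCm38.p6), read 5′ to 3′ on the plus strand, which is the strand of each of the 4 genes. Capitals mark ACGTG or GCGTG, or their reverse complements CACGT and CACGC where the motif lies on the other strand. ACGTG also forms part of the E-box CACGTG. The windows are chr11:120948817-120949116 for Slc16a3 and chr2:71872974-71873273 for Pdk1, which rose, and chrX:106186850-106187149 for Pgk1 and chr4:150236947-150237246 for Eno1, which fell.
Slc16a3: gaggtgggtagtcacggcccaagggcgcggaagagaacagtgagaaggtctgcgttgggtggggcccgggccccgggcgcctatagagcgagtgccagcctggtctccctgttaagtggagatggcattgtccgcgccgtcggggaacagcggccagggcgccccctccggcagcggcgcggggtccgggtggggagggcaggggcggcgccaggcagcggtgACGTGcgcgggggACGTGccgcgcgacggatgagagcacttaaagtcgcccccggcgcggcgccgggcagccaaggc
Pdk1: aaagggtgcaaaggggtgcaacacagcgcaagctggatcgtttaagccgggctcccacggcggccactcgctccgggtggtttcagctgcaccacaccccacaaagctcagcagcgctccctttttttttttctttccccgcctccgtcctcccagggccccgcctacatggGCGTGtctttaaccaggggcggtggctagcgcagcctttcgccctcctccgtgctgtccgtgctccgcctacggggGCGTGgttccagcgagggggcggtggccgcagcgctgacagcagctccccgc
Pgk1: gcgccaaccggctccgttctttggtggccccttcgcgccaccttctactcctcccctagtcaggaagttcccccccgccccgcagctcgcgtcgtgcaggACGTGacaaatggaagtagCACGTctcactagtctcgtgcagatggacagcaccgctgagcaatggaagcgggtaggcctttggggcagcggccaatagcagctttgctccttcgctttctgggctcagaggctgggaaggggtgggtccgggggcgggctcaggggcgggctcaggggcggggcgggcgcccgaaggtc
Eno1: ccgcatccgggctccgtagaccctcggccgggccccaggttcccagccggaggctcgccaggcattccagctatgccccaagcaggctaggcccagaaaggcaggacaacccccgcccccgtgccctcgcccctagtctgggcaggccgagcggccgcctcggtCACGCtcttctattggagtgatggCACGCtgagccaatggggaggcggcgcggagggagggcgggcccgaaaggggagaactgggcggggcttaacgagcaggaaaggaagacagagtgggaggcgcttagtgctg

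Each of these windows held 2 matches, with Slc16a3 carrying ACGTG, Pgk1 carrying ACGTG once on each strand, Pdk1 carrying GCGTG and Eno1 carrying CACGC. A promoter window could be matched for 32 of the 33 listed genes, and Slc2a3 had none in the RefSeq table used. The 32 include Pdk4, Aldoc and Eno2, which were not tested for expression. Either motif was present on either strand in 26 of these 32 windows (81.3%), in 63.9% of the 9463 windows of tested genes and in 43.9% of all 27025 windows. ACGTG was present in 12 of the 32 (37.5%, against 26.1% of tested genes) and GCGTG in 20 (62.5%, against 52.3%). By direction, a match was found in 4 of the 5 genes that rose, with Hk1 the exception, in 3 of 3 that fell and in 17 of the 21 that did not pass. For Pgam1, 1 of the genes that rose, no transcript start of the GENCODE annotation lay near the start site used. A match describes letters in the window and not a bound site.

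Compared per kilobase of annotated exon, Pkm, Gapdh, Aldoa, Pgam1, Pgk1, Ldha and Eno1 were the most abundant transcripts of the set. In the libraries labelled VEC-null, Pkm had 1521 ± 236 normalized counts per kilobase (SD, n = 3), Gapdh 1110 ± 147, Aldoa 998 ± 243, Pgam1 959 ± 215, Pgk1 823 ± 296, Ldha 610 ± 111 and Eno1 564 ± 67.0. Apart from Pkm, neighbours in this order lay within their spread of each other. In the libraries labelled VEC-positive the order was Pkm at 1556 ± 18.5 normalized counts per kilobase, Pgam1 at 1299 ± 99.3, Gapdh at 921 ± 68.9, Aldoa at 875 ± 20.7, Ldha at 557 ± 22.3, Pgk1 at 463 ± 35.3 and Eno1 at 387 ± 17.1. Here Gapdh and Aldoa were the only neighbours within their spread, and Pgam1 stood in the second place where it had been in the fourth. The order rests on the exon length used, since per kilobase of the longest transcript the libraries labelled VEC-null had Pkm at 3127, Aldoa at 1876, Eno1 at 1498 and Gapdh at 1395.

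Among the transport genes of the set, only Slc16a3 was high enough for a test. Slc16a3, with a pair of ACGTG matches just before its start, encodes MCT4, the monocarboxylate transporter that exports lactate from glycolytic cells. It had 18.4, 18.1 and 35.5 normalized counts in the VEC-null-labelled libraries and 91.0, 91.6 and 102 in those labelled VEC-positive. Every VEC-positive library was above every VEC-null library, and VEC-null 3 was nearest to the other group. Slc16a3 rose 4.03-fold (log2 fold change 2.01, SE 0.28, adjusted p = 0.000926, limma), and it passed under all 19 alternatives with an adjusted p of at most 0.0075. Per kilobase of exon, Slc16a3 had 4.51 normalized counts in the VEC-null-labelled libraries and 17.9 in the others. It stayed below Slc16a1, the gene of the lactate transporter MCT1, which had 45.8 against 35.1. Slc2a3, the glucose transporter GLUT3, was at 1 to 9 reads in every library. Slc2a1, which encodes the main endothelial glucose transporter GLUT1 and was named after its values had been seen, had 180, 209 and 332 normalized counts against 265, 276 and 298. Its groups overlapped through VEC-null 3 (log2 fold change 0.27, adjusted p = 0.357), and it passed without that library (0.52, adjusted p = 0.0037; the highest adjusted p over the alternatives was 0.869).

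At the first step, hexokinase, Hk1 was the main form with 96.1% ± 1.26 of the summed Hk1 and Hk2 level per kilobase in the VEC-null-labelled libraries and 96.3% ± 0.622 in the others (n = 3 each). Hk1 had 1322, 1353 and 1546 normalized counts against 2194, 2127 and 2151. The groups were clearly apart, and Hk1 rose 1.54-fold (log2 fold change 0.62, SE 0.080, adjusted p = 0.000609), passing under all 19 alternatives with an adjusted p of at most 0.0154. Hk2, the inducible hexokinase, had 52.0, 35.4 and 31.9 against 54.8, 48.7 and 68.6 normalized counts. Those groups overlapped, and Hk2 did not pass (log2 fold change 0.53, adjusted p = 0.131). Gpi1, which makes fructose 6-phosphate, differed by -0.15 on the log2 scale and did not pass (adjusted p = 0.247).

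Phosphofructokinase, the committed step, is built from liver (Pfkl), muscle (Pfkm) and platelet (Pfkp) subunits. Pfkl had 647, 732 and 1014 normalized counts in the VEC-null-labelled libraries and 1057, 1069 and 1061 in the others. The VEC-positive libraries were all above and close to each other, while VEC-null 3 stood close to them. Pfkl did not pass with all libraries (log2 fold change 0.44, SE 0.15, adjusted p = 0.0528) and passed without VEC-null 3 (0.63, adjusted p = 0.000138; highest over the alternatives 0.494). Pfkm had 295, 328 and 380 against 441, 421 and 438 normalized counts and rose without overlap (log2 fold change 0.38, SE 0.11, adjusted p = 0.0254). This call was kept under 10 of 19 alternatives and was lost when any VEC-positive library, VEC-null 1 or VEC-null 2 was left out, with a highest adjusted p of 0.612. Pfkp had 315, 273 and 357 against 257, 230 and 251 normalized counts, again without overlap but in the other direction, and did not pass (log2 fold change -0.35, SE 0.12, adjusted p = 0.0524). Pfkp passed as lower under 7 of 19 alternatives, among them both equal-total scalings, TMM and edgeR (highest adjusted p 0.174).

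A ratio of subunits within a library does not depend on the scaling of libraries. That of Pfkp to Pfkl normalized counts was 0.487, 0.374 and 0.352 in the VEC-null-labelled libraries and 0.243, 0.215 and 0.237 in those labelled VEC-positive. All VEC-positive ratios were lower, by 0.79 on the log2 scale on average, but the test did not pass. The exact two-sided permutation p was 0.1, the smallest that 3 against 3 libraries can give, so that no such ratio can reach 0.05 in this design, and the value adjusted over the 11 ratios computed was 0.367. As a share of the 3 subunits per kilobase, Pfkp went from 9.77% ± 1.29 to 5.97% ± 0.277, Pfkl from 48.8% ± 2.87 to 51.8% ± 0.870 and Pfkm from 41.4% ± 2.21 to 42.2% ± 0.593 (n = 3 each), the last 2 by about their spread or less. Pfkp shares 748 exonic bases (5.58% of its exons) on the opposite strand with Pitrm1, and the sources used here do not state whether strand was used in counting, so reads there cannot be assigned.

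The level of fructose 2,6-bisphosphate, the strongest activator of phosphofructokinase, is set by the PFKFB enzymes. Pfkfb3, the form known for driving glycolysis in sprouting vessels, had 142, 173 and 195 normalized counts in the VEC-null-labelled libraries and 122, 123 and 136 in the others. All 3 VEC-positive libraries were lower, but the difference did not pass (log2 fold change -0.41, SE 0.15, adjusted p = 0.0613). It passed under 4 of 19 alternatives, both equal-total scalings, edgeR and without VEC-null 1 (highest adjusted p 0.168). Pfkfb4 was low, at 6.12 to 14.2 against 12.8 to 15.6 normalized counts, and overlapped (log2 fold change 0.60, adjusted p = 0.261). The ratio of Pfkfb3 to Pfkfb4 was 23.3, 12.2 and 24.4 against 9.55, 7.88 and 9.94, with no overlap and the smallest possible exact p of 0.1 (adjusted 0.367).

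**Figure D2:**
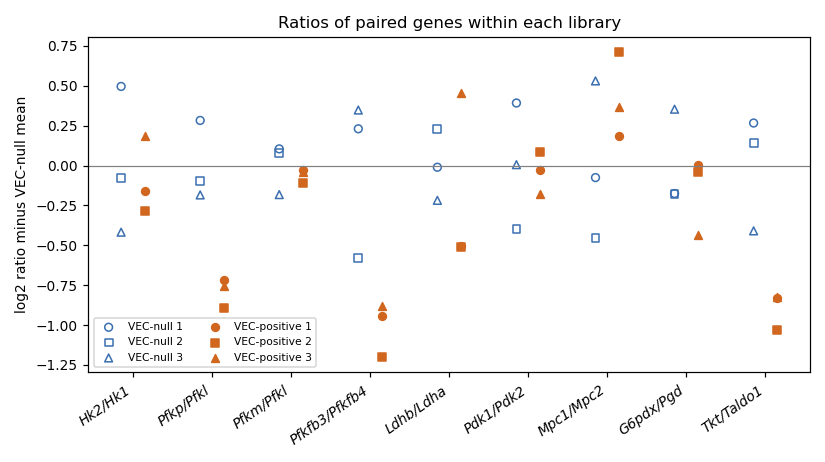
Log2 ratio of paired genes in each library, set to 0 at the mean of the VEC-null libraries (9 of the 11 ratios are drawn). Pfkp/Pfkl, Pfkfb3/Pfkfb4 and Tkt/Taldo1 are the 3 ratios whose groups do not overlap, all of them lower in the libraries labelled VEC-positive. No share over other gene pairs was computed, and of single tested genes 50% showed no overlap.

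The steps from fructose 1,6-bisphosphate to glyceraldehyde 3-phosphate dehydrogenase did not pass. Aldoa, the aldolase of these cells, had 2425, 2572 and 3718 against 2483, 2552 and 2603 normalized counts, overlapping apart from the high value of VEC-null 3 (log2 fold change -0.16, adjusted p = 0.428, and 0.028 without that library). Aldoc was at 0 to 3 reads per library. Tpi1, the triose phosphate isomerase, differed by -0.063 (adjusted p = 0.633). Gapdh, which many studies use as a reference transcript, had 4004, 4549 and 5215 against 3478, 3998 and 3940 normalized counts. Its groups did not overlap, and it did not pass (log2 fold change -0.26, SE 0.11, adjusted p = 0.096). Gapdh passed as lower under 4 of 19 alternatives, both equal-total scalings, DESeq2 and without VEC-null 1 (highest adjusted p 0.289).

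The phosphoglycerate steps moved in opposite directions. Pgk1, whose window holds ACGTG on both strands, encodes the first ATP-yielding enzyme of the pathway and had 1371, 1562 and 2606 normalized counts in the VEC-null-labelled libraries and 982, 1129 and 1004 in the others. All VEC-positive libraries were lower, and VEC-null 3 was far above both of its companions. Pgk1 fell by 0.77 on the log2 scale (SE 0.21, adjusted p = 0.0231) and by 0.50 without VEC-null 3 (adjusted p = 0.00137). It did not pass without the trend or when any 1 of the VEC-positive libraries was left out, with an adjusted p of up to 0.0818. Pgk1 lies on chromosome X, where the median log2 fold change of 492 tested genes was -0.32 against -0.0024 for 13447 autosomal genes, and the part of this in the result was not tested. The other X-linked genes of the set, Pdha1 and G6pdx, did not pass.

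Pgam1, the phosphoglycerate mutase, had 1607, 1707 and 2389 normalized counts against 2372, 2585 and 2765. VEC-null 3 overlapped with the lowest VEC-positive library, and Pgam1 rose by 0.46 on the log2 scale (SE 0.15, adjusted p = 0.0416). The call held in 10 of 19 alternatives only, among them the one without VEC-null 3 (0.63, adjusted p = 0.00017), with a highest adjusted p of 0.417. Reads may also be shared with the processed copy Pgam1-ps2, which had 1034, 924 and 612 against 1056, 888 and 1010 normalized counts. With copies summed, an alternative added after the data had been seen, the log2 fold change was 0.35 (adjusted p = 0.0102).

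Eno1, the enolase of most tissues and a gene with CACGC in its window, had 2619, 3247 and 3241 normalized counts in the VEC-null-labelled libraries and 1981, 2161 and 2105 in those labelled VEC-positive. VEC-null 3 did not stand apart here, the groups were separate, and Eno1 fell by 0.54 on the log2 scale (SE 0.099, adjusted p = 0.00369). It passed in all 19 alternatives with an adjusted p of at most 0.0239, including the sum with its near-identical copy Eno1b (-0.57, adjusted p = 0.00225), which by itself had 1148, 1442 and 1279 against 804, 797 and 847 normalized counts. The neuronal enolase Eno2 was at 1 to 9 reads in every library. The muscle enolase Eno3, named after its values had been seen, went the other way, with 13.8, 11.0 and 22.2 against 60.7, 56.5 and 50.8 normalized counts (log2 fold change 1.83, adjusted p = 0.00186), although it remained a small part of the enolase transcripts.

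**Figure D3:**
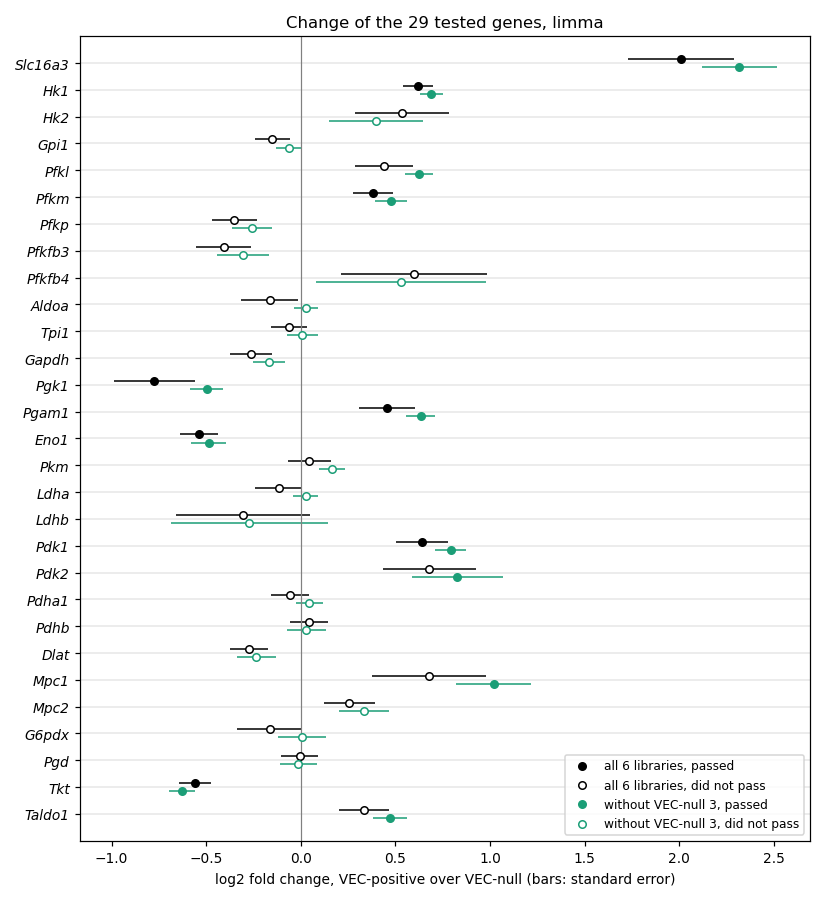
Log2 fold change of the 29 tested genes, VEC-positive over VEC-null, with standard errors, for all 6 libraries (black) and without VEC-null 3 (green), filled where the adjusted p was under 0.05. Without VEC-null 3 most green points lie to the right of the black ones, and 9 genes pass upwards in place of 5.

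Pyruvate formation and lactate formation did not pass. Pkm, the pyruvate kinase gene and the most abundant of the set per kilobase, had 6631, 7264 and 8917 against 7873, 7790 and 7689 normalized counts. The VEC-positive libraries lay inside the range of the others (log2 fold change 0.045, 95% confidence interval -0.22 to 0.31, adjusted p = 0.782). Ldha, the lactate-forming dehydrogenase subunit, had 1760, 1862 and 2438 against 1764, 1909 and 1857 (log2 fold change -0.12, 95% confidence interval -0.40 to 0.16, adjusted p = 0.483). Ldhb was at 11.7 to 25.0 normalized counts, so that Ldha made up 98.0% of the 2 subunits per kilobase in the VEC-null-labelled libraries and 98.2% in the others.

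Oxidation of pyruvate inside mitochondria is limited by the pyruvate dehydrogenase kinases, which switch the dehydrogenase complex off. Pdk1, with GCGTG at its start, had 470, 458 and 636 normalized counts in the VEC-null-labelled libraries and 756, 877 and 784 in those labelled VEC-positive. The groups were separate, and Pdk1 rose 1.56-fold (log2 fold change 0.64, SE 0.14, adjusted p = 0.00713). This call was lost only under equal totals, with an adjusted p of 0.0599, the highest over the 19 alternatives. Pdk2 had 33.7, 57.5 and 60.3 against 73.5, 78.9 and 84.7 normalized counts, also without overlap, and did not pass with all libraries (log2 fold change 0.68, SE 0.25, adjusted p = 0.0619) but did without VEC-null 3 (0.83, adjusted p = 0.019; highest over the alternatives 0.235). The opposing phosphatase subunits, which switch the complex on, belong to the wider list of sugar genes: Pdp1 had 94.9, 104 and 94.9 against 253, 311 and 256 normalized counts and rose 2.76-fold (log2 fold change 1.47, SE 0.13, adjusted p = 7.84e-05), and the regulatory Pdpr rose by 0.46 (adjusted p = 0.0144, kept in 14 of 19 alternatives, highest 0.304). The other catalytic phosphatase subunit Pdp2 (log2 fold change 0.38, adjusted p = 0.132) and the kinase Pdk3 (0.22, adjusted p = 0.467), both named after their values had been seen, did not pass.

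The subunits of the complex itself did not pass. The log2 fold change was -0.055 for Pdha1 (adjusted p = 0.695), 0.042 for Pdhb (adjusted p = 0.771) and -0.27 for Dlat (adjusted p = 0.0666), which encode the E1 alpha, E1 beta and E2 subunits. Dlat was the only 1 of these without overlap, at 242, 254 and 269 against 225, 203 and 203 normalized counts. Dlat passed as lower under 3 of 19 alternatives, both equal-total scalings and edgeR (highest adjusted p 0.199). Pdha1 shares 603 exonic bases (16.1%) on the opposite strand with Map3k15, which was low. Mpc1 and Mpc2 form the mitochondrial pyruvate carrier. Mpc1 had 49.0, 44.1 and 95.8 against 84.0, 117 and 88.0 normalized counts. VEC-null 3 lay among the VEC-positive libraries and the 2 others far below, so that Mpc1 did not pass with all libraries (log2 fold change 0.68, SE 0.30, adjusted p = 0.117) and did without VEC-null 3 (1.02, adjusted p = 0.00253; highest over the alternatives 0.316). Mpc2 had 107, 126 and 136 against 153, 147 and 140 (log2 fold change 0.26, adjusted p = 0.175).

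In the pentose phosphate pathway Tkt fell, and the 2 oxidative enzymes and Taldo1 did not pass. G6pdx, the NADPH-forming entry enzyme, had 360, 411 and 547 against 451, 382 and 334 normalized counts (log2 fold change -0.16, adjusted p = 0.49), and it overlaps Ikbkg on the opposite strand over 418 exonic bases (13.6%). Pgd, the next dehydrogenase, differed by -0.0051 (95% confidence interval -0.23 to 0.22, adjusted p = 0.973). Tkt, the transketolase, had 886, 906 and 779 normalized counts in the VEC-null-labelled libraries and 573, 573 and 595 in the others. The groups were separate, VEC-null 3 being the lowest of its group here, and Tkt fell by 0.56 on the log2 scale (SE 0.084, adjusted p = 0.0013). It passed under all 19 alternatives with an adjusted p of at most 0.0102.

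Taldo1, the transaldolase that works with Tkt, had 476, 531 and 669 against 658, 757 and 680 normalized counts. It overlapped through VEC-null 3 and did not pass (log2 fold change 0.33, SE 0.13, adjusted p = 0.0808), but it passed without that library (0.47, adjusted p = 0.00214; highest over the alternatives 0.889). The ratio of Tkt to Taldo1 was 1.86, 1.71 and 1.16 in the VEC-null-labelled libraries and 0.871, 0.757 and 0.874 in the others, lower in every VEC-positive library. Per kilobase of exon Taldo1 was the higher of the 2 genes in both groups, at 257 against 117 for Tkt in the VEC-null-labelled libraries and 322 against 78.9 in the others. The log2 difference was -0.89, with the smallest possible exact p of 0.1 (adjusted 0.367). The other 8 ratios overlapped between groups. How often other pairs of genes show no overlap was not computed.

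The wider list of sugar metabolism held 62 further genes, of which 53 had a row and 46 were tested. It was chosen with earlier results of these data known. In it 5 genes were higher, 9 were lower and 32 did not pass (30.4% called, beside 37.3% of all genes), with a median log2 fold change of -0.096. Without VEC-null 3 the counts were 9 higher and 7 lower of 45, beside 27.7% and 23% of all genes. Beside Pdp1 and Pdpr, Bsg rose (1793, 2188 and 2580 against 2942, 3408 and 2990 normalized counts, log2 fold change 0.52, adjusted p = 0.0164). The call was lost under both equal-total scalings, without the trend and without VEC-positive 2 (highest adjusted p 0.191). Bsg encodes basigin, the chaperone that carries MCT1 and MCT4 to the cell surface. The MCT1 gene Slc16a1, named after its values had been seen, had 170, 187 and 252 against 152, 162 and 153 (log2 fold change -0.36, adjusted p = 0.11).

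Genes that fell included both fructose 1,6-bisphosphatases, which run the phosphofructokinase step backwards. Fbp1 had 115, 159 and 172 against 49.0, 57.5 and 53.3 normalized counts (log2 fold change -1.45, adjusted p = 0.000639), and Fbp2, named after its values had been seen, had 19.9, 22.8 and 25.7 against 3.50, 3.90 and 3.23 (-2.39, adjusted p = 0.001). Me2, the mitochondrial malic enzyme that makes pyruvate from malate, had 474, 435 and 481 against 266, 253 and 268 (-0.82, adjusted p = 0.000228). Prps2, the X-linked enzyme that activates ribose 5-phosphate for nucleotide synthesis, had 370, 354 and 416 against 188, 209 and 213 (-0.90, adjusted p = 0.000371). Groups were separate for each of these 4 genes. Pgm3 of hexosamine synthesis fell by 0.66 (adjusted p = 0.0418), a call kept in 12 of 19 alternatives with a highest adjusted p of 0.133. Of the most abundant genes that did not pass, Dld, the E3 subunit of pyruvate dehydrogenase, differed by 0.064 (adjusted p = 0.595) and Me1 by -0.13 (adjusted p = 0.671).

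Many glycolytic genes are known targets of the hypoxia-inducible factors, and 29 factors and targets outside sugar metabolism were counted beside them. Of 26 tested, 14 were higher, 2 were lower and 10 did not pass (61.5%, beside 37.3% of all genes), with a median log2 fold change of 0.43. This list was chosen with earlier results of these data known. Under equal totals the counts were 9 higher and 4 lower, with a median of 0.12, beside 11.1% and 35.3% of all genes. Without VEC-null 3 they were 19 and 2, beside 27.7% and 23% of all genes. Of the 14, Arnt, the shared partner of the factors, rose by 0.23 (adjusted p = 0.0342), passed in 8 of 19 alternatives and turned to -0.077 under equal totals. Among the factors, Epas1 (HIF-2 alpha) had 3363, 3424 and 3243 against 7039, 6407 and 6779 normalized counts and rose by 1.01 (adjusted p = 3.09e-05), while Hif1a had 4142, 4410 and 6244 against 6339, 6860 and 6433 and did not pass (0.43, adjusted p = 0.0519; 0.61 without VEC-null 3).

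Among the targets, Vldlr rose by 3.37, Vegfa by 1.06, Higd1a by 1.10 and P4ha2 by 1.10, and outside the naming rule Ankrd37 rose by 1.86, Ero1a by 0.96, Ndrg1 by 0.87, Bnip3l by 0.73 and Egln3 by 0.53 (each adjusted p at most 0.0162). These targets encode a lipoprotein receptor, an angiogenic ligand, a mitochondrial protein and a collagen prolyl hydroxylase among others. Ero1a kept its call in 14 of 19 alternatives (highest adjusted p 0.0576). Of the other calls, Hif1an (0.43) was kept in 14 (highest adjusted p 0.362) and Narf (0.42) in 16 (0.381). Ak4 (0.76) was kept in 7 of 19 (highest adjusted p 0.160). Plin2 fell by 0.49 (adjusted p = 0.0362, kept in 14 of 19 alternatives, highest 0.128) and Bhlhe40 by 0.48 (adjusted p = 0.00911), and the abundant Ddit4 differed by 0.058 (adjusted p = 0.636). Bnip3, Kdm3a, P4ha1, Mxi1, Fam162a, Egln1, Egln2 and Vhl also did not pass, at 0.050 (Kdm3a) to 0.31 (Bnip3) on the log2 scale. All of them except Bnip3 turned negative under some alternative. The listed target Adm, too low for a test, was lower in every library labelled VEC-positive. Arnt, Epas1, Egln3, Ankrd37, Ero1a, Ndrg1, Bnip3l, Hif1an, Narf and Ak4 were named after their values had been seen. So were Adm and, apart from Hif1a and Ddit4, the hypoxia genes that did not pass. Which members are targets of these factors was not listed beforehand, so no count of such members is given. Among all tested members, Slc16a3, Hk1, Pfkm, Pgam1 and Pdk1 rose, Pgk1, Eno1 and Tkt fell, and 21 did not pass. The called share was 27.6%, beside 37.3% of all genes.

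**Figure D4:**
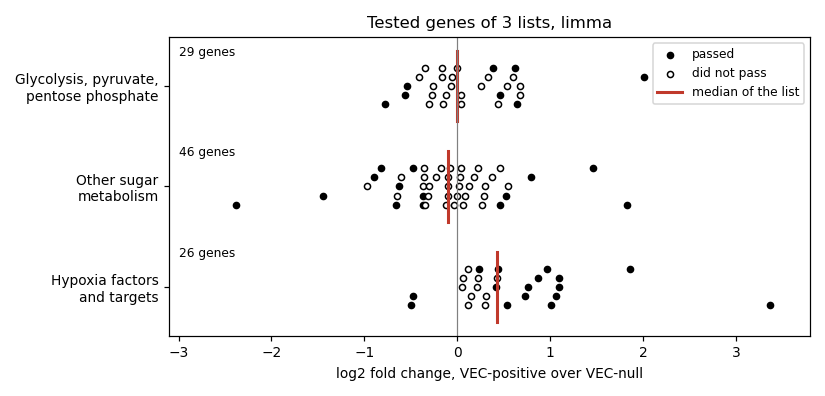
Log2 fold change, VEC-positive over VEC-null, of every tested gene of the 3 lists (29, 46 and 26 genes), filled where the adjusted p was under 0.05, with the median of each list as a red bar. The medians were -0.0051, -0.096 and 0.43, and the glycolytic set holds points on both sides of 0.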

How the data were processed

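RNA was read from 6 libraries made with a stranded total RNA kit, 3 VEC-null and 3 VEC-positive, grouped by the labels. The authors deposited 1 table of normalized gene counts, treated here as signal: reads trimmed with Trim Galore, aligned with TopHat2 2.1.1 to mm10 and normalized with DESeq2 1.14, per the submitters' processing notes. The sources used here do not give the counting program, strand setting or annotation. Dividing each deposited column by the value of 1 read gave whole reads for 100% of values (within 0.01 read), which supplied depths and count-based alternatives. The size factors assume that most genes do not change.

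The deposited values were tested as log2(normalized count + 1) with limma 3.58.1 (R 4.3.3), with a mean-variance trend, for 14032 of 24080 genes with at least 10 normalized counts in at least 3 libraries. All tests were two-sided, and p-values were adjusted by Benjamini-Hochberg across the genes tested, with 0.05 as the threshold. Fold changes on this scale understate those of low genes. On the recovered reads, edgeR 4.0.16 called 2817 genes higher and 2506 lower, and DESeq2 1.42.0 called 2568 and 2301. Ratios of paired genes were compared by exact permutation (scipy 1.17.1). Levels between genes were set per kilobase of the union of annotated exons. The limma, edgeR and DESeq2 fits were also run on simulated counts with known changes, built from the levels of these data.

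All listed genes were named, and of each further list up to 4 called genes per direction with a mean of at least 50 normalized counts, plus up to 2 of the most abundant that did not pass. The members, lists and rules were chosen with earlier results of these data known. Alternatives were pseudocounts of 0.5 and 5, no filter, a filter of 50, equal totals with and without mitochondrial transcripts, TMM, no trend, robust variances, the replicate number as a block, edgeR, DESeq2, leaving out each library, and summed copies. Promoter windows came from RefSeq.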

Additional observations from a re-analysis of the deposited data

How the results depend on the processing

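Slc16a3, Hk1, Eno1 and Tkt kept their direction and passed in all 19 alternatives, and Pfkfb4, Pkm, Ldhb, Mpc2 and G6pdx passed in none. The other calls and non-calls changed in at least 1. Genes of the set that were higher numbered 5, but 2 under equal totals, 3 under equal totals without mitochondrial transcripts, 3 without the trend, and 3 to 9 with 1 library left out. Lower ones numbered 3, but 14 and 7 under the equal-total scalings, 6 in edgeR and 2 to 5 with 1 library left out. Over all genes, 2927 higher and 2304 lower became 1564 and 4960 under equal totals, with 1919 to 3795 higher when 1 library was left out, lowest without VEC-positive 2 and highest without VEC-null 3. Other sugar genes changed from 5 higher to 2 under both scalings and 3 to 9 with 1 library left out, and from 9 lower to 23 and 14. Hypoxia genes changed from 14 higher to 9 under equal totals and 9 to 19 with 1 library left out, and from 2 lower to 4 under equal totals, 1 without the trend, and 1 to 2 with 1 library left out. The causes were not tested.

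Among named values that had passed, Arnt alone changed sign. Under equal totals the log2 fold change was -0.077 for Arnt, -0.087 for Pdk3, -0.27 for Pkm, -0.27 for Pdhb, -0.052 for Mpc2, -0.25 for Dld, -0.25 for Ddit4 and -0.045 for Slc2a1. Under equal totals without mitochondrial transcripts it was -0.10 for Pkm, -0.10 for Pdhb, -0.082 for Dld and -0.087 for Ddit4. With a pseudocount of 5 the log2 ratio was 0.072 for Aldoc/Aldoa and 0.0015 for Pdk1/Pdk2. With 1 library left out, ranges that crossed 0 were -0.29 to 0.16 for Hk2/Hk1, -0.76 to 0.14 for Aldoc/Aldoa, -0.24 to 0.16 for Pdk1/Pdk2, -0.25 to 0.019 for G6pdx/Pgd, -0.28 to 0.028 for Aldoa, -0.14 to 0.0084 for Tpi1, -0.048 to 0.17 for Pkm, -0.21 to 0.026 for Ldha, -0.12 to 0.046 for Pdha1, -0.0029 to 0.10 for Pdhb, -0.30 to 0.0064 for G6pdx, -0.050 to 0.062 for Pgd, -0.0039 to 0.11 for Dld, -0.26 to 0.14 for Me1, -0.0018 to 0.45 for Pdk3 and -0.022 to 0.11 for Ddit4.

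The sources used here do not say whether same-numbered libraries were paired. Deviations of same-numbered libraries correlated at 0.076, -0.33 and -0.30, and those of differently numbered ones at -0.22 to 0.39. With 3 libraries per group these values cannot decide it. With the replicate block, 4 genes of the set were higher and 3 lower, and 2400 and 1744 of all genes. Depth limits Slc2a3, Aldoc, Eno2, Pfkfb4 and Ldhb most. The 3 libraries per group are of 1 line and 1 retroviral derivative, so the derivation of that line and VEC cannot be told apart.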
